A study of Mus musculus with 30 samples.

Results

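The haematopoietic heptad is a set of 7 transcriptional regulators, Tal1, Lyl1, Lmo2, Gata2, Runx1, Erg and Fli1. Its members were taken as the rows of the expression table that carry one of these gene symbols, and all 7 were found among 14685 genes. Tal1 and Lyl1 are related basic helix-loop-helix factors, Lmo2 is a LIM-only adaptor that does not bind DNA and bridges Tal1 or Lyl1 to GATA factors, Gata2 is a zinc finger factor, Runx1 is a Runt domain factor, and Erg and Fli1 are related ETS factors. In blood stem and progenitor cells these proteins bind many of the same enhancers, including enhancers of their own genes. During embryonic blood formation Tal1 and Lmo2 act early in mesoderm, the ETS factors are also used by endothelial cells, and Runx1 is required for the transition from haemogenic endothelium to blood.

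RNA was sequenced from 5 populations of a mouse embryonic stem cell differentiation series, and each population was sampled as 2 replicates in each of 3 genotypes, which gave 15 groups and 30 samples. All cells were derived from the E14 ESC line. WT cells were compared with Sp1ΔDBD/ΔDBD cells (labelled Sp1_deltaDBD), in which the region encoding the DNA-binding domain of Sp1 is deleted and a truncated protein can remain, and with Sp3-/- cells (labelled Sp3KO), in which Sp3 is knocked out. Sp1 and Sp3 are related zinc finger factors that bind GC-rich promoter elements in most cell types. The populations were undifferentiated ESC, Flk1+ mesoderm isolated on magnetic columns from embryoid bodies, and 3 populations sorted at day 2 of blast culture, a culture in which Flk1+ cells form endothelium and then blood. HE1 cells (KIT+ Tie2+ CD41-) are early haemogenic endothelium, HE2 cells (KIT+ Tie2+ CD41+) are at a later stage of it, and progenitors (KIT+ CD41+ Tie2-) have lost the endothelial receptor. Each mutant genotype is 1 ESC line, so an effect of the mutation and a property of that line cannot be told apart. The paper's methods say that the time in embryoid body culture varied with the cell line, and the labels do not give it for these samples. In Flk1+ cells and those cultured from them, genotype and culture time may therefore not be told apart. The paper's methods describe the RNA-seq replicates as biological. Neither the methods nor the labels say that replicates came from separate differentiations, and p-values then measure only the spread between these samples.

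The values are FPKM (fragments per kilobase of transcript, scaled to the size of the library), which are per length and can be compared between genes, and the authors had quantile normalised them. Read counts were not analysed here, and the depth of a library is unknown. Sp3 was at 3.38 to 7.79 FPKM in Sp3-/- samples and 25.9 to 58.1 FPKM in WT samples. Sp1 RNA was at 14.8 to 40.5 FPKM in Sp1ΔDBD/ΔDBD and 24.9 to 52.4 FPKM in WT samples, and the value for the whole gene does not show whether the deleted part was present. The summed FPKM of 5 pluripotency genes (Pou5f1, Nanog, Zfp42, Sox2, Esrrb) was 1086 to 1331 in ESC, 21.6 to 97.6 in Flk1+ cells and at most 2.16 in the blast culture populations. The summed FPKM of the genes behind the sort (Kdr, which encodes Flk1, Kit, Tek, which encodes Tie2, and Itga2b, which encodes CD41) was 14 to 22.5 in ESC and 139 to 671 elsewhere. Replicate 1 of the WT and Sp1ΔDBD/ΔDBD blast culture samples stood apart. All 7 mesenchymal genes listed (Col1a1, Col1a2, Col3a1, Acta2, Tagln, Pdgfra, Pdgfrb) are in the table, and in HE1 their sum was 1862 in WT replicate 1 against 375 in replicate 2, 1019 against 255 in Sp1ΔDBD/ΔDBD and 208 against 129 in Sp3-/- samples. The sum of 4 epithelial genes (Epcam, Cdh1, Krt8, Krt18) was 711 against 63.0 in WT HE1. The part of these genes' cells in the values below was not tested, and calls of members that change without these 6 samples are given both ways. That leaves 1 sample in each WT and Sp1ΔDBD/ΔDBD blast culture group, which the fit assumes to vary like the other groups, so such p-values rest on the spread of other groups. In sorted bulk samples, fewer cells of a type and less RNA per cell cannot be told apart.

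Promoter sequence was used for 5 members, and it is shown because Sp1 and Sp3 bind the GC box GGGCGG. Windows of 250 bases before to 50 bases after a transcription start were taken from RefSeq (GRCm38.p6, the assembly named mm10), with 10 starts for Tal1, Lyl1, Gata2, Runx1 and Erg. GGGCGG or its reverse complement was found in 4 of these 10 windows, and in 35.7% of the 32851 windows of all genes. The second start of Tal1 held 4 matches, the second start of Gata2 held 3, and the first starts of Gata2 and Erg held 1 each. None was found at the first start of Tal1, which is the start of the annotated gene. None was found in the window of Lyl1, in either window of Runx1 or at the other starts of Erg. A match is a run of letters and was not tested as a binding site, and its absence says only that these letters are not in the window. The bases upstream of 1 start for each of these members that differed between a mutant and WT are printed 5′ to 3′ in the direction of the gene, with GGGCGG or CCGCCC in capitals. For Tal1 this is the start with the most matches, and the first start, with none, is not printed. The printed bases lie at chr4:115057561-115057810 (+ strand), inside the Tal1 gene, and directly before the annotated gene at chr8:84701207-84701456 (+ strand) for Lyl1, chr6:88193641-88193890 (+ strand) for Gata2 and chr16:95586594-95586843 (- strand) for Erg.
Tal1, second start: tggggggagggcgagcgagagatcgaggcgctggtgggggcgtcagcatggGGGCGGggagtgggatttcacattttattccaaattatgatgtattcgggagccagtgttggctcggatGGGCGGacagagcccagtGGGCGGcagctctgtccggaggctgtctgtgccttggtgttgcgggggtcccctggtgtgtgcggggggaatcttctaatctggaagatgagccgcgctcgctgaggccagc
Lyl1: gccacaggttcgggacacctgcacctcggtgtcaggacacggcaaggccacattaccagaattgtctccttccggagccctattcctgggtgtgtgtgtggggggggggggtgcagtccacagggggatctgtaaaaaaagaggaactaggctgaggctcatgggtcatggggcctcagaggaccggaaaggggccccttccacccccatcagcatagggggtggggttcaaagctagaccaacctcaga
Gata2, first start: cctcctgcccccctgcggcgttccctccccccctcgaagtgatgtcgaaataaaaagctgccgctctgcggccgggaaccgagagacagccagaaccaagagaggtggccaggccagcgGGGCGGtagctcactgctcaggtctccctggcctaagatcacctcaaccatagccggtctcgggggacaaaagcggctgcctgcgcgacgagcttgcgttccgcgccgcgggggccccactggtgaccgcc
Erg, first start: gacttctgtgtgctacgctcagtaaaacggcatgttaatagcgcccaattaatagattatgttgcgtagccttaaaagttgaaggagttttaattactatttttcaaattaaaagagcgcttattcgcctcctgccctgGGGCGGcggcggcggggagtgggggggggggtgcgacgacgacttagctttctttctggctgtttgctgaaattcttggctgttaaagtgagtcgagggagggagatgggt

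The windows were also searched on both strands for CCACCC, a variant box bound by Sp and Klf factors, for GATAA, the core of a GATA site, for TGTGGT, the core of a Runx site, and for GGAAGT, an ETS core. None of these strings contains GGGCGG or lies within it. CCACCC was found in 1 of the 10 windows, that of Lyl1 with 2 matches, against 31.5% of all windows. GATAA was found in 2 (the first start of Tal1 and the third of Erg, 25.4% of all windows), TGTGGT in 1 (the first start of Runx1, 16.8%) and GGAAGT in 0 of 10 (23.8%).

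In WT cells all 7 members were lowest in ESC and rose between ESC and Flk1+ cells, after which they took separate courses. Tests were made with limma on log2(FPKM + 0.1) in a single fit of all 30 samples, log2 fold changes are on that scale, and a gene is called when its adjusted p (Benjamini-Hochberg over the 14525 genes tested) is below 0.05. Between ESC and Flk1+ cells 7 of 7 members were called, all upwards, where 52.2% of all genes were called in either direction. The median rise of the members was 4.94 and that of all genes 0.03. Between Flk1+ and HE1 cells 3 of 7 were called, all upwards (53.0% of all genes). Between HE1 and HE2 cells 4 of 7 were called, all upwards (21.9% of all genes). Between HE2 cells and progenitors 1 rose and 2 fell (13.2% of all genes). The share of members called was below that of all genes in the second of these steps and above it in the others.

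**Figure D1:**
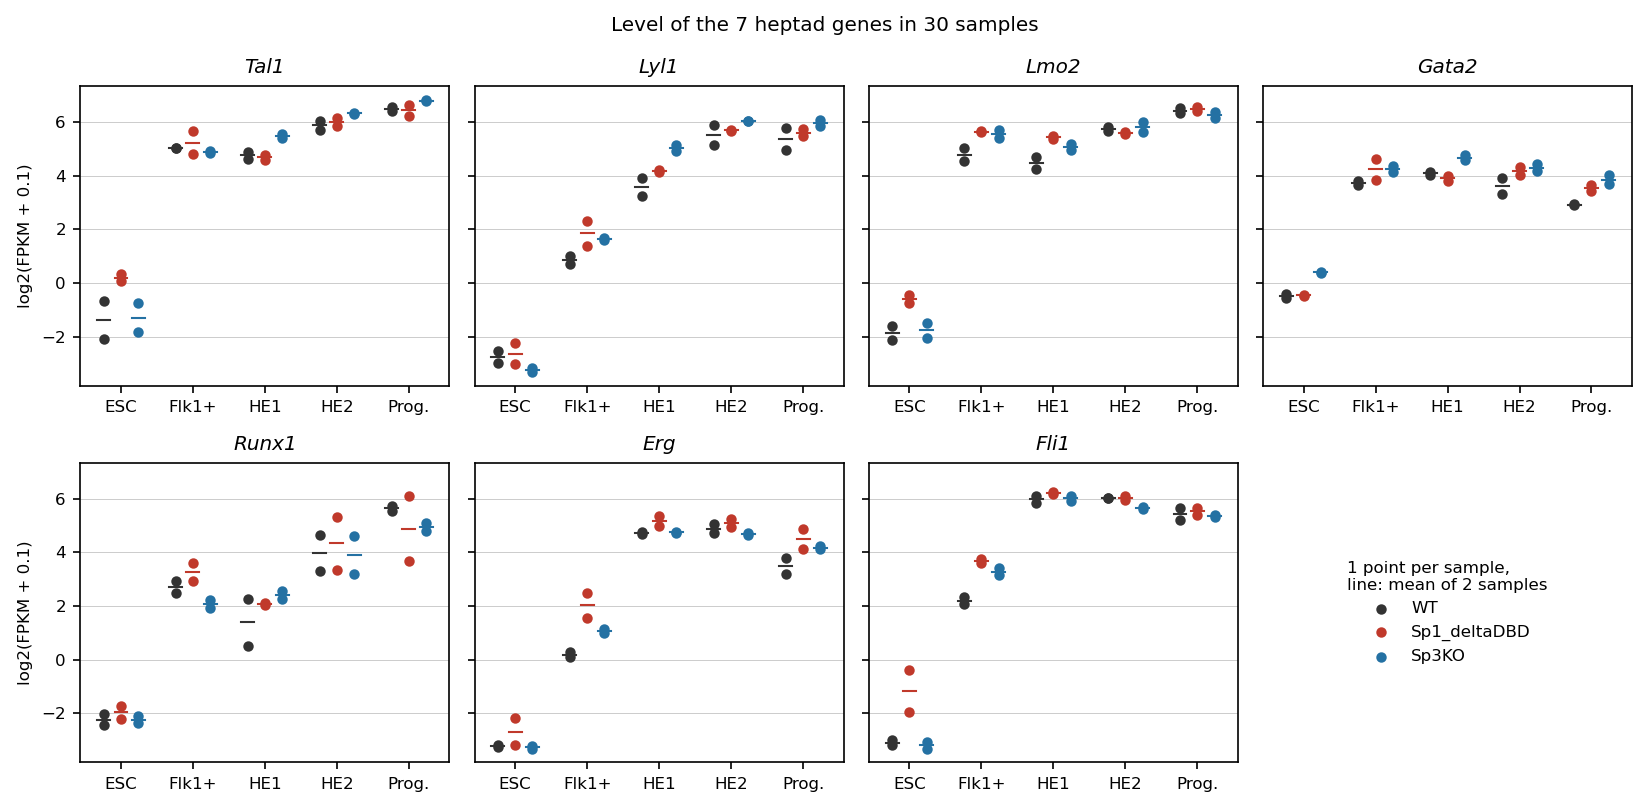
Level of each heptad gene as log2(FPKM + 0.1) in the 5 populations, with 1 point per sample and a line at the mean of the 2 samples of a group, in WT (black), Sp1ΔDBD/ΔDBD (red) and Sp3-/- (blue) cells. All 7 genes were lowest in ESC, and Runx1 had the widest gaps between replicates, with 12.7 and 67.5 FPKM in Sp1ΔDBD/ΔDBD progenitors.

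The bHLH factor Tal1 was at 0.138 and 0.525 FPKM in the WT ESC samples and at 33.0 and 32.3 FPKM in mesoderm. HE1 samples were at 24.8 and 29.3, HE2 samples at 52.4 and 66.3 and progenitor samples at 84.7 and 93.8 FPKM. Its level was therefore already high in mesoderm and highest in progenitors. The rise from ESC to Flk1+ cells was 6.41 (SE 0.349, adjusted p = 2.18e-11) and that from HE1 to HE2 was 1.13 (SE 0.349, adjusted p = 0.0264). The second of these was lost when any of its 4 samples was left out (adjusted p = 0.147 and 0.0606 without HE1 replicates 1 and 2, and 0.0537 and 0.146 without HE2 replicates 1 and 2), and it was 1.17 without the 6 replicate 1 samples (adjusted p = 0.193). In the order progenitor, HE2, Flk1+, HE1, ESC, only the last neighbours differed (HE1 above ESC by 6.13, adjusted p = 1.82e-11). The HE2 level was above the Flk1+ level by 0.85, with adjusted p = 0.0535.

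Its relative Lyl1 came up later. It was at 0.0263 and 0.0723 FPKM in the WT ESC samples and at 1.91 and 1.54 FPKM in Flk1+ samples. The HE1 samples were at 9.31 and 14.9, the HE2 samples at 35.6 and 59.9 and the progenitor samples at 31.3 and 55.1 FPKM. It rose by 3.62 from ESC to Flk1+ cells (SE 0.327, adjusted p = 2.35e-08), by 2.71 from there to HE1 (adjusted p = 1.31e-06) and by 1.96 from HE1 to HE2 (adjusted p = 0.000357). HE2 cells and progenitors, the 2 highest, did not differ beyond their spread (0.15, adjusted p = 0.861), whereas the progenitor level was above HE1 by 1.81 (adjusted p = 0.000168). The ratio of Tal1 to Lyl1 FPKM was 17.3 and 21 in the WT Flk1+ samples and 2.66 and 1.97 in the HE1 samples, then 1.47 and 1.11 (HE2) and 2.71 and 1.70 (progenitor), so Tal1 was above Lyl1 in each of these samples and least so in HE2.

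The adaptor Lmo2 followed Tal1 closely. It was at 0.130 and 0.234 FPKM in the WT ESC samples and at 32.3 and 23.3 FPKM in Flk1+ samples. The HE1 samples were at 19.1 and 26.0, the HE2 samples at 50.9 and 56.3 and the progenitor samples at 92.2 and 80.1 FPKM. It rose by 6.64 from ESC to Flk1+ cells (SE 0.214, adjusted p = 2.63e-14), by 1.26 from HE1 to HE2 (adjusted p = 0.000428) and by 0.68 from HE2 to progenitors (adjusted p = 0.0392). The last rise was lost without any of its 4 samples (adjusted p = 0.191 and 0.0798 without HE2 replicates 1 and 2, and 0.228 and 0.0668 without progenitor replicates 1 and 2), and it was 0.51 without the 6 replicate 1 samples (adjusted p = 0.45). HE2 was above Flk1+ cells by 0.96 (adjusted p = 0.00111), Flk1+ was not above HE1 beyond the spread (0.30, adjusted p = 0.254), and HE1 was above ESC by 6.34 (adjusted p = 1.96e-14).

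Gata2, the GATA factor of early blood cells, had no called change among Flk1+, HE1 and HE2 cells and then fell. It was at 0.586 and 0.647 FPKM in the WT ESC samples and at 14 and 12.6 FPKM in Flk1+ samples. The HE1 samples were at 16.4 and 17.3, the HE2 samples at 9.87 and 15 and the progenitor samples at 7.65 and 7.35 FPKM. It was the only member whose 2 progenitor samples lay below all WT Flk1+, HE1 and HE2 samples. It rose by 4.23 from ESC to Flk1+ cells (SE 0.216, adjusted p = 9.38e-12). In the order HE1, Flk1+, HE2 no difference between neighbours passed the test (0.34, adjusted p = 0.204, and 0.12, adjusted p = 0.675). From HE1 to HE2 the difference was -0.46 (adjusted p = 0.14), and -0.76 without HE2 replicate 2. From HE2 to progenitors Gata2 fell by 0.69 on the log2 scale (adjusted p = 0.0383). This fall was lost without HE2 replicate 2 (adjusted p = 0.354) and without progenitor replicate 1 or 2 (adjusted p = 0.122 and 0.134). Progenitors remained above ESC by 3.41 (adjusted p = 1.14e-10).

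Runx1 was at 0.0847 and 0.143 FPKM in the WT ESC samples and at 5.46 and 7.53 FPKM in Flk1+ samples. The HE1 samples were at 4.66 and 1.33, the HE2 samples at 24.6 and 9.80 and the progenitor samples at 46.1 and 52.9 FPKM. It had the largest standard error of the 7 genes (0.699 for each difference between 2 groups). It rose by 4.94 from ESC to Flk1+ cells (adjusted p = 7.74e-06) and by 2.58 from HE1 to HE2 (adjusted p = 0.0127), and the second call was lost without HE1 replicate 2 or HE2 replicate 1 (adjusted p = 0.161 and 0.138). HE1 was 1.32 below Flk1+ cells (adjusted p = 0.122), which became 2.19 below without HE1 replicate 1 (adjusted p = 0.0338). Without the 6 replicate 1 samples it was also 2.19 below (adjusted p = 0.00171), and progenitors were 2.42 above HE2 (adjusted p = 0.0134), with 1 WT sample in each of these blast culture groups. HE1 was above ESC by 3.62 (adjusted p = 0.00015), and no other neighbours in the order progenitor, HE2, Flk1+, HE1, ESC differed (adjusted p = 0.136 and 0.152 for the upper pairs). When the replicate number was a block by culture, progenitors differed from HE2 by 1.66 (adjusted p = 0.0222) and HE1 from Flk1+ cells by -1.32 (adjusted p = 0.0269).

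The ETS factors Erg and Fli1 kept rising between mesoderm and haemogenic endothelium. Erg was at 0.00486 and 0.00958 FPKM in the WT ESC samples and at 0.962 and 1.11 FPKM in Flk1+ samples. The HE1 samples were at 25.3 and 26.6, the HE2 samples at 33.2 and 25.9 and the progenitor samples at 8.94 and 13.6 FPKM. It rose by 3.40 from ESC to Flk1+ cells (SE 0.315, adjusted p = 3.36e-08) and by 4.52 from there to HE1 (adjusted p = 1.32e-09), did not differ between HE1 and HE2 (0.18, adjusted p = 0.751), and fell by 1.40 from HE2 to progenitors (adjusted p = 0.00464). The fall was lost without HE2 replicate 1 or progenitor replicate 1 (adjusted p = 0.0603 and 0.0827), and became -0.93 without the 6 replicate 1 samples (adjusted p = 0.252). HE1 was above progenitors by 1.23 (adjusted p = 0.0037). Progenitors stayed above Flk1+ cells by 3.29 (adjusted p = 7.79e-08).

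Fli1 was at 0.0240 and 0.0110 FPKM in the WT ESC samples and at 4.90 and 4.07 FPKM in Flk1+ samples. The HE1 samples were at 56.9 and 68.8, the HE2 samples at 64.3 and 65.6 and the progenitor samples at 36.4 and 50.1 FPKM. The rise to Flk1+ cells was 5.28 (SE 0.299, adjusted p = 3.8e-11) and that to HE1 was 3.78 (adjusted p = 6.4e-09). In the order HE2, HE1, progenitor no difference between neighbours passed the test (0.05, adjusted p = 0.945, and 0.55, adjusted p = 0.145). From HE2 to progenitors the difference was -0.60 (adjusted p = 0.219), and with a pseudocount of 1 it was called at -0.59 (adjusted p = 0.0182). Progenitors were above Flk1+ cells by 3.23 (adjusted p = 5.11e-08). The ratio of Fli1 to Erg FPKM in WT was 5.09 and 3.67 in the Flk1+ samples and 2.25 and 2.59 in the HE1 samples, then 1.94 and 2.53 (HE2) and 4.07 and 3.70 (progenitor), so Fli1 exceeded Erg in all of them.

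The orders above also use comparisons of WT populations that do not follow each other. Of all genes, 66.5% were called between HE1 and ESC, 61.1% between HE2 and ESC, 58.6% between progenitors and ESC, 46.0% between HE2 and Flk1+ cells, 46.2% between progenitors and Flk1+ cells and 44.9% between progenitors and HE1. Members were called in 7, 7, 7, 4, 7 and 6 of 7 cases in these comparisons.

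As a share of the summed FPKM of the 7 genes, the make-up of the set changed from population to population. In WT Flk1+ samples Tal1 gave 35.7% and 39.1% of the sum and Lmo2 34.9% and 28.3%, against 5.29% and 4.94% for Fli1. In HE1 samples Fli1 gave 36.4% and 37.4% and Erg 16.2% and 14.4%, so the ETS factors together formed the larger share. In progenitor samples Tal1 gave 27.6% and 26.6%, Lmo2 30% and 22.7% and Runx1 15% and 15%, while Gata2 gave 2.49% and 2.08%. The sum itself was 92.6 and 82.5 FPKM in the WT Flk1+ samples, 156 and 184 in the HE1 samples, 271 and 299 in the HE2 samples and 307 and 353 in the progenitor samples.

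**Figure D2:**
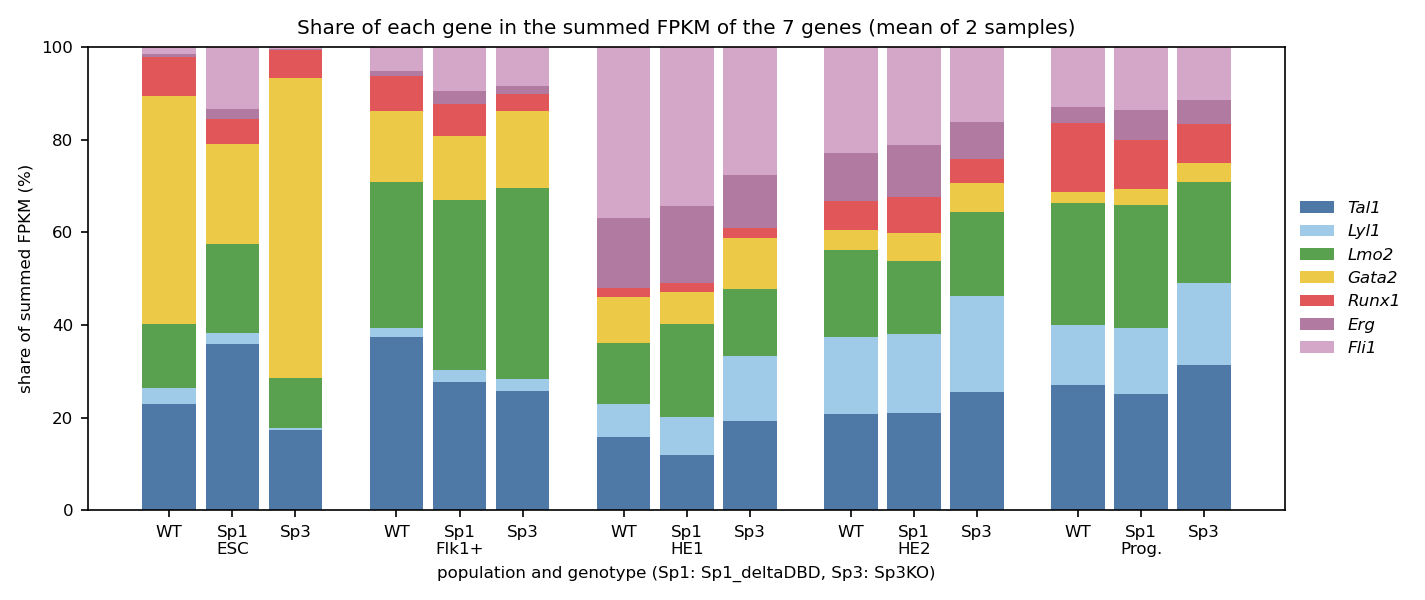
Share (%) of each heptad gene in the summed FPKM of the 7 genes, as the mean of the 2 samples of a group, by population and genotype. In WT cells the mean share of Fli1 went from 5.11% in Flk1+ cells to 36.9% in HE1 and 13.0% in progenitors, and the ESC bars rest on sums of at most 3.1 FPKM.

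The question of the mutant comparisons is how loss of Sp1 DNA binding or of Sp3 changes expression along the same path. Over the 5 populations, 8 of 35 member tests were called in Sp1ΔDBD/ΔDBD against WT and 6 of 35 in Sp3-/- against WT, and all 14 were upwards. A downward call, Lyl1 in Sp3-/- ESC, appeared in other settings (-1.92, adjusted p = 0.0194, with a pseudocount of 0.01 and -1.24, adjusted p = 0.0234, with a correction for length and GC content, against -0.49, adjusted p = 0.392), at no more than 0.0723 FPKM in WT and Sp3-/- samples. The 2 mutants are compared with the same WT samples, so these counts are not independent. In Sp1ΔDBD/ΔDBD cells 3 members were called in ESC (6.06% of all genes called), 3 in Flk1+ cells (5.54%), 1 in HE1 (10.0%), 0 in HE2 (9.67%) and 1 in progenitors (8.78%). In Sp3-/- cells 1 was called in ESC (11.3%), 2 in Flk1+ cells (12.6%), 1 in HE1 (10.9%), 1 in HE2 (13.8%) and 1 in progenitors (8.65%). With 7 genes a single call is close to what these backgrounds give, so the counts of 1 are no result about the heptad. The counts of 3 of 7 in Sp1ΔDBD/ΔDBD ESC and Flk1+ cells lie further above theirs, but the members move together, so these are not separate results. The 3 ESC calls were at very low levels and were lost with a pseudocount of 1. The median log2 fold change of the members in Flk1+ cells was 0.86 in Sp1ΔDBD/ΔDBD and 0.77 in Sp3-/- cells, and that of all genes was 0.02 and 0.00. In ESC it was 0.54 and 0.01 (all genes 0.00 and -0.02), in HE1 0.46 and 0.60 (all genes 0.02 and 0.05), in HE2 0.17 and 0.08 (0.04 and 0.03), and in progenitors 0.10 and 0.32 (0.05 and 0.04). For the empty count in Sp1ΔDBD/ΔDBD HE2, limma gave 1 member with an unadjusted p below 0.05. Values of 2 mutant and 2 WT samples often do not overlap. By population, 22.7% to 30.1% of all genes lay wholly above WT in Sp1ΔDBD/ΔDBD and 28% to 35.4% in Sp3-/- cells. Wholly below WT lay 17.7% to 25.2% and 23.4% to 34.8%, so a lack of overlap alone is no result about a member.

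**Figure D3:**
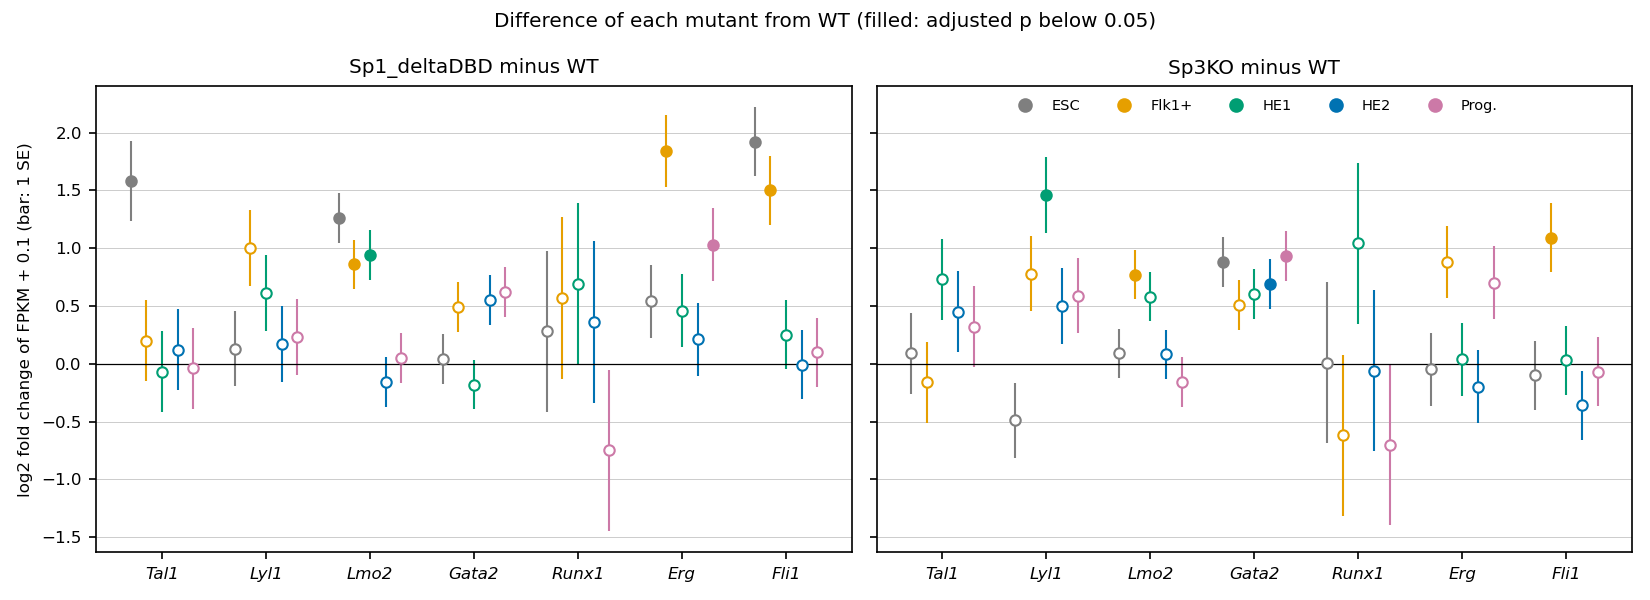
Difference of Sp1ΔDBD/ΔDBD (left) and Sp3-/- (right) from WT for each heptad gene, as log2 fold change of FPKM + 0.1 with a bar of 1 SE, coloured by population. Filled points have an adjusted p below 0.05: 8 on the left and 6 on the right, all above 0.

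Tal1 and Lyl1 each had 1 call against WT. Tal1 was at 0.966 and 1.15 FPKM in Sp1ΔDBD/ΔDBD ESC and 0.138 and 0.525 in WT ESC, which do not overlap, and the difference was 1.58 (SE 0.349, adjusted p = 0.00961). It was lost without WT replicate 1 (0.89, adjusted p = 0.163) and without Sp1ΔDBD/ΔDBD replicate 2 (adjusted p = 0.0639). In the other populations Sp1ΔDBD/ΔDBD and WT values of Tal1 overlapped, as with 57.4 and 71.7 against 52.4 and 66.3 FPKM in HE2. In Sp3-/- cells Tal1 was at 42.5 and 47.0 FPKM in HE1 against 24.8 and 29.3 in WT, a difference of 0.73 that did not pass the test (adjusted p = 0.195), and with a pseudocount of 1 it was 0.71 (adjusted p = 0.0322).

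Lyl1 was at 30 and 35.0 FPKM in Sp3-/- HE1 cells, against 9.31 and 14.9 in WT and 17.7 and 18.3 in Sp1ΔDBD/ΔDBD HE1 cells. The 3 genotypes did not overlap. The Sp3-/- level was above WT by 1.46 (SE 0.327, adjusted p = 0.00838). The call was lost without WT replicate 1 (1.12, adjusted p = 0.109) or Sp3-/- replicate 2 (adjusted p = 0.0861), and without the 6 replicate 1 samples described above (1.12, adjusted p = 0.0632). WT replicate 1 of HE1, with the higher mesenchymal sum, had the lower Lyl1 value. In Flk1+ cells Lyl1 was at 2.53 and 4.92 FPKM in Sp1ΔDBD/ΔDBD and 2.91 and 3.13 in Sp3-/- against 1.91 and 1.54 in WT samples, and neither difference passed the test (adjusted p = 0.0832 and 0.128). The first was 1.0 without the 6 replicate 1 samples, none of which is a Flk1+ sample (adjusted p = 0.0467).

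Lmo2 was called in 3 populations in Sp1ΔDBD/ΔDBD cells. In ESC it was at 0.504 and 0.631 FPKM against 0.130 and 0.234 in WT, a difference of 1.26 (SE 0.214, adjusted p = 0.00112). In Flk1+ cells it was at 50.9 and 49.1 FPKM in Sp1ΔDBD/ΔDBD and 52.2 and 42.1 in Sp3-/- samples, both above 32.3 and 23.3 in WT. The differences were 0.86 (adjusted p = 0.0214) and 0.77 (adjusted p = 0.0238) with an SE of 0.214. Both were lost without WT Flk1+ replicate 2 (0.63, adjusted p = 0.311, and 0.54, adjusted p = 0.293). The first was also lost without Sp1ΔDBD/ΔDBD replicate 1 or 2 (adjusted p = 0.121 and 0.0857), and the second without Sp3-/- replicate 1 (adjusted p = 0.226). With a pseudocount of 0.01 both were lost (adjusted p = 0.0591 and 0.0575), and once gene length and GC content were corrected for the second was 0.64 (adjusted p = 0.0604).

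In HE1, Lmo2 was at 44.9 and 41.1 FPKM in Sp1ΔDBD/ΔDBD against 19.1 and 26.0 in WT samples, a difference of 0.94 (adjusted p = 0.00837). Without WT replicate 1 it was 0.72 (adjusted p = 0.124), and without the 6 replicate 1 samples 0.66 (adjusted p = 0.215). Sp3-/- HE1 samples were at 35.9 and 31.0 FPKM, also above WT, without passing the test (0.58, adjusted p = 0.0883). In HE2 and progenitors Lmo2 was not called in either mutant. WT HE2 samples were at 50.9 and 56.3, Sp1ΔDBD/ΔDBD at 49.0 and 46.8, below both WT samples, and Sp3-/- at 64.2 and 49.7 FPKM. The progenitor samples of all genotypes lay between 70.9 and 93.7 FPKM.

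Gata2 gave 3 of the 6 calls in Sp3-/- cells, and its values there lay above WT in every population. In any one population 28% to 35.4% of all genes lay above WT in this way. The share of all genes above WT in every population was not determined. In ESC Gata2 was at 1.21 and 1.23 FPKM against 0.586 and 0.647 in WT (0.88, SE 0.216, adjusted p = 0.0127). In HE2 it was at 21.6 and 17.9 against 9.87 and 15 (0.69, adjusted p = 0.0405), and in progenitors at 16.2 and 12.7 against 7.65 and 7.35 (0.93, adjusted p = 0.0117). In Flk1+ cells it was at 17.6 and 20.4 against 14 and 12.6 (0.51, adjusted p = 0.136), and in HE1 at 27.0 and 24.1 against 16.4 and 17.3 (0.60, adjusted p = 0.0833). The ESC call was lost without WT replicate 1 (adjusted p = 0.0878) or either Sp3-/- replicate (adjusted p = 0.0812 and 0.0805), and the progenitor call without WT replicate 2 (adjusted p = 0.062) or Sp3-/- replicate 1 (adjusted p = 0.14).

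The HE2 call of Gata2 was the weakest. It was lost without WT replicate 1 (0.38, adjusted p = 0.411), without the 6 replicate 1 samples (0.38, adjusted p = 0.366), without Sp3-/- replicate 1 or 2 (adjusted p = 0.226 and 0.089), without 1 of the ESC Sp3-/- or WT Flk1+ samples, which bear only on the spread (adjusted p = 0.0501 to 0.0511), and when the replicate number was a block (adjusted p = 0.0548). Correcting for gene length and GC content lowered it to 0.37 (adjusted p = 0.239) and the ESC value to 0.55 (adjusted p = 0.11). In Sp1ΔDBD/ΔDBD cells Gata2 was at 19.7 and 16.2 FPKM in HE2 and 10.6 and 12.6 in progenitors, above WT in both, without passing the test (adjusted p = 0.118 and 0.0836, the second 0.0167 once gene length and GC content were corrected for), and at 14 and 15.7 in HE1, below WT (adjusted p = 0.688).

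Runx1 was not called between genotypes in any population, and its replicates spread widely. Sp1ΔDBD/ΔDBD samples were at 9.94 and 40.1 FPKM in HE2 and 12.7 and 67.5 in progenitors, on both sides of the WT values of 24.6 and 9.80 and of 46.1 and 52.9. Replicate 1, the lower Runx1 value in both, was the one with the higher mesenchymal sum (373 against 38.1 in HE2 and 144 against 23.9 in progenitors), whereas in WT HE2 the higher Runx1 value was in replicate 1 (mesenchymal sum 460 against 75.7). Their part in the result was not tested. Without the 6 replicate 1 samples Sp1ΔDBD/ΔDBD HE2 cells were above WT by 2.02 (adjusted p = 0.0285) and Sp3-/- HE1 cells by 1.90 (adjusted p = 0.0219). The first compares 1 sample with 1 (40.1 against 9.80 FPKM) and the second 2 samples with 1, so the spread comes from other groups. Sp3-/- progenitors were at 33.5 and 27.5 FPKM, below both WT samples, without passing the test (a difference of -0.70, adjusted p = 0.615).

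Erg was higher in Sp1ΔDBD/ΔDBD Flk1+ cells, where it was at 2.81 and 5.52 FPKM against 0.962 and 1.11 in WT and 1.88 and 2.1 in Sp3-/- samples. The difference from WT was 1.84 (SE 0.315, adjusted p = 0.00141), was called without any single sample, and was lost when the Flk1+ samples were fitted alone (adjusted p = 0.0676). In Sp3-/- Flk1+ cells it was 0.88 (adjusted p = 0.0745), and 0.88 when the replicate number was a block (adjusted p = 0.0471). In progenitors Erg was at 17.3 and 29.4 FPKM in Sp1ΔDBD/ΔDBD and 17.2 and 18.7 in Sp3-/- against 8.94 and 13.6 in WT samples. The difference was 1.03 in Sp1ΔDBD/ΔDBD (adjusted p = 0.0476) and 0.70 in Sp3-/- cells (adjusted p = 0.186). The first of these stood just inside the threshold and was lost in 21 of the 30 fits that left out 1 sample, among them those without WT progenitor replicate 1 (0.73, adjusted p = 0.31) and without Sp1ΔDBD/ΔDBD progenitor replicate 2 (0.65, adjusted p = 0.291). In the others it was 0.05 to 0.0594. Without the 6 replicate 1 samples the difference was 1.11 (adjusted p = 0.149).

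Fli1 was higher in Flk1+ cells of both mutants, at 12.1 and 13.5 FPKM in Sp1ΔDBD/ΔDBD and 10.6 and 8.73 in Sp3-/- against 4.90 and 4.07 in WT samples. The differences were 1.5 (SE 0.299, adjusted p = 0.0048) and 1.09 (adjusted p = 0.0221). Both were lost with a pseudocount of 0.01 (adjusted p = 0.0642 and 0.127). The first was lost without WT replicate 2 (1.37, adjusted p = 0.0786), and the second without any of its 4 samples (adjusted p = 0.0587 and 0.189 without WT replicates 1 and 2, and 0.184 and 0.0555 without Sp3-/- replicates 1 and 2). From HE1 on no difference between a mutant and WT passed the test. Sp1ΔDBD/ΔDBD HE1 samples were at 72.6 and 76.4 FPKM, above 56.9 and 68.8 in WT, and Sp3-/- HE2 samples at 49.3 and 51.8, below 64.3 and 65.6 in WT. WT progenitors were at 36.4 and 50.1, Sp1ΔDBD/ΔDBD at 41.9 and 50.2 and Sp3-/- at 41.8 and 39.7 FPKM. In ESC Fli1 was at 0.662 and 0.158 FPKM in Sp1ΔDBD/ΔDBD against 0.0240 and 0.0110 in WT samples (1.92, adjusted p = 0.00053).

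The ESC differences concern genes that are barely on. The highest value of any member in an ESC sample was 1.23 FPKM, the depth behind it is unknown, and with a pseudocount of 1 none of the 3 ESC calls in Sp1ΔDBD/ΔDBD cells or of the 1 in Sp3-/- cells was kept (adjusted p = 0.0686 for Tal1, 0.16 for Lmo2, 0.112 for Fli1 and 0.15 for Gata2). The endothelial marker sum (Cdh5, Pecam1, Emcn, Esam, Egfl7, Ramp2, Icam2) was 46.1 and 47.2 FPKM in WT and 51.2 and 45.0 in Sp1ΔDBD/ΔDBD ESC. Most of it there was Pecam1 (28.2 and 30.2 in WT, 34.3 and 32.1 in Sp1ΔDBD/ΔDBD), and Cdh5 was at most 0.223. The mesenchymal sum in ESC was 43.5 and 19.6 in WT, 56.0 and 42.1 in Sp1ΔDBD/ΔDBD and 15.3 and 31.1 in Sp3-/- samples. In Flk1+ cells the endothelial sum was 71.0 and 67.4 in WT, 73.6 and 112 in Sp1ΔDBD/ΔDBD and 82.8 and 81.2 in Sp3-/- samples. The Sp1ΔDBD/ΔDBD sample with the sum of 112 was the one with the higher value of every member but Lmo2. The summed FPKM of the heptad was 118 in replicate 1 and 160 in replicate 2 of these cells. Other sums also differed in Flk1+ cells. The epithelial sum was 284 and 299 FPKM in WT, 188 and 115 in Sp1ΔDBD/ΔDBD and 144 and 125 in Sp3-/- samples, and the pluripotency sum was 41.3 and 31.9, 54.0 and 21.6, and 94.9 and 97.6 FPKM. The part of these sums, or of culture time, in the Flk1+ results was not tested.

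Directly compared with each other, the mutants differed in 5 of 35 member tests. In ESC, Tal1 (-1.49, adjusted p = 0.0109), Lmo2 (-1.17, adjusted p = 0.00191) and Fli1 (-2.02, adjusted p = 0.000333) were lower in Sp3-/- than in Sp1ΔDBD/ΔDBD cells, and Gata2 was higher (0.85, adjusted p = 0.0178), where 9.67% of all genes were called. In HE1, Gata2 was higher in Sp3-/- cells at 27.0 and 24.1 against 14 and 15.7 FPKM (0.78, adjusted p = 0.0222, 13.6% of all genes called). No member was called in Flk1+ cells (7.39% of all genes), HE2 (15.9%) or progenitors (11.6%), where limma gave 1, 0 and 0 members with an unadjusted p below 0.05. When the replicate number was a block, Erg in Flk1+ cells (-0.96, adjusted p = 0.0451) and Tal1 in HE1 (0.80, adjusted p = 0.0332) were called. With a pseudocount of 1, Tal1 (0.77, adjusted p = 0.0179) and Lyl1 (0.82, adjusted p = 0.0419) in HE1 were called. With one of 0.01, Lyl1 and Erg in ESC were called (-2.14 and -1.99, adjusted p = 0.0111 and 0.026). Correcting for length and GC content also called Lyl1 in ESC (-1.07, adjusted p = 0.0409). Without the 6 replicate 1 samples Runx1 in HE2 was called at -1.43 (adjusted p = 0.0415), with a single Sp1ΔDBD/ΔDBD sample. The Tal1 call was lost without Sp1ΔDBD/ΔDBD replicate 2 or Sp3-/- replicate 1 (adjusted p = 0.0718 and 0.21). The Gata2 calls were lost without any of their own samples (adjusted p = 0.0663 to 0.108 in ESC and 0.077 to 0.136 in HE1), and that in HE1 without the 6 replicate 1 samples (0.70, adjusted p = 0.0681). The 4 ESC calls were lost with a pseudocount of 1 (adjusted p = 0.0613 to 0.18).

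Whether a mutant's effect on a member differed between populations that follow each other was tested in 56 cases, and limma called 0, with 11 at an unadjusted p below 0.05. Of all genes, the effect of Sp1ΔDBD/ΔDBD differed for 1.74% between ESC and Flk1+ cells, 1.53% between Flk1+ and HE1 cells, 0.00688% between HE1 and HE2, and 0.0207% between HE2 and progenitors. For Sp3-/- these shares were 1.48%, 4.02%, 0% and 0.0275%. With a pseudocount of 1, 4 cases were called, all of Fli1: its rise in Flk1+ cells exceeded that in ESC (0.89, adjusted p = 0.0434, in Sp1ΔDBD/ΔDBD and 0.97, adjusted p = 0.0226, in Sp3-/- cells) and that in HE1 (a difference of -1.09, adjusted p = 0.0164, and of -0.93, adjusted p = 0.023). With a pseudocount of 0.1 the first of these had the opposite sign (-0.42, adjusted p = 0.746). Effects were also called without Sp1ΔDBD/ΔDBD ESC replicate 1 (3, of Fli1) or 2 (4, of Fli1, the lowest adjusted p = 0.00971) and without WT ESC replicate 2 (1, of Tal1, -2.08, adjusted p = 0.0261). Without the 6 replicate 1 samples the effect of Sp3-/- on Runx1 was larger in HE1 than in Flk1+ cells by 2.53 (adjusted p = 0.0308). With a pseudocount of 0.1 and all samples, calls in Flk1+ cells that are absent in HE1 are therefore not shown to differ between these populations. For Fli1 this depended on the setting.

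Of 12 genes whose products join heptad complexes (the LIM-binding Ldb and Ssbp proteins, the E proteins Tcf3, Tcf4 and Tcf12, the Runx1 partner Cbfb, the co-repressors Cbfa2t2 and Cbfa2t3, and Zfpm1), all were tested. The shares of all genes called, 5.54% to 10.0% by population in Sp1ΔDBD/ΔDBD and 8.65% to 13.8% in Sp3-/- cells, are the background of the counts for this list and the next lists, and a single call among so few genes is close to it. In Sp1ΔDBD/ΔDBD cells 5 rose and 1 fell in ESC, 1 rose in HE1 and 0 were called elsewhere. In Sp3-/- cells 3 rose in ESC, 1 rose in Flk1+ cells, 1 rose and 1 fell in HE1, 3 rose and 2 fell in HE2 and 0 were called in progenitors. The median log2 fold change in ESC was 0.43 in Sp1ΔDBD/ΔDBD and 0.11 in Sp3-/- cells, against 0.00 and -0.02 over all genes. Ssbp4, which stabilises Ldb1 complexes, was at 30.5 and 21.9 FPKM in Sp1ΔDBD/ΔDBD and 44.2 and 41.7 in Sp3-/- against 14.2 and 11.2 in WT ESC. The differences were 1.03 (adjusted p = 0.0108) and 1.76 (adjusted p = 0.000168), and the first was lost without WT replicate 2 or Sp1ΔDBD/ΔDBD replicate 1 (adjusted p = 0.128 and 0.14).

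Ldb1, the partner that Lmo2 binds, was at 70.5 and 66.5 FPKM in Sp1ΔDBD/ΔDBD against 46.1 and 47.6 in WT ESC (0.55, adjusted p = 0.0233, lost without any of the 4 samples, adjusted p = 0.0601 to 0.137). In Sp3-/- ESC Ldb1 was at 72.4 and 74.0 FPKM (0.64, adjusted p = 0.00572). In Sp1ΔDBD/ΔDBD ESC Ssbp3 was at 26.1 and 26.3 against 18.6 and 17.2 (0.55, adjusted p = 0.000393). Ssbp2 was at 3.35 and 4.71 against 1.76 and 2.50 in HE1 (0.89, adjusted p = 0.0333, and 0.65 without WT replicate 1, adjusted p = 0.278, or without Sp1ΔDBD/ΔDBD replicate 2, adjusted p = 0.314). It was 0.89 without the 6 replicate 1 samples (adjusted p = 0.0944). In Sp3-/- cells Tcf3, the E protein that pairs with Tal1, was at 38.4 and 34.4 against 19.3 and 21 in ESC (0.85, adjusted p = 0.0117, and 0.31 once gene length and GC content were corrected for, adjusted p = 0.345). It was lost without WT replicate 1 (adjusted p = 0.0865) or either Sp3-/- replicate (adjusted p = 0.11 and 0.0527). In Sp3-/- HE2 cells Ldb2 was at 6.57 and 6.92 against 13.8 and 16.2 (-1.14, adjusted p = 0.0285, lost without any of the 4 samples, adjusted p = 0.0967 to 0.117, and without the 6 replicate 1 samples, adjusted p = 0.101), and the E protein gene Tcf4 at 14.8 and 14.4 against 23.7 and 22.2 (-0.65, adjusted p = 0.00509, lost without WT replicate 1 or Sp3-/- replicate 2, adjusted p = 0.058 and 0.0505). Once gene length and GC content were corrected for, Ldb2 was at -0.98 (adjusted p = 0.0582) and Tcf4 at -0.32 (adjusted p = 0.0714).

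Of 18 relatives of the members in the same protein families, 15 are in the table and were tested. In Sp1ΔDBD/ΔDBD cells 4 of 75 tests were called, all upwards and in 2 genes, a share no higher than the background. The ETS gene Elk3 was at 3.01 and 3.54 FPKM against 1.71 and 1.25 in WT ESC (1.11, adjusted p = 0.00516, and 0.90 without WT replicate 2, adjusted p = 0.0849). In Sp3-/- cells 7 of 75 tests were called, 5 upwards and 2 downwards, in 6 genes, a share within the background when the populations are pooled. By population 1 rose and 1 fell in ESC, 3 rose and 1 fell in Flk1+ cells, 1 rose in progenitors and 0 were called in HE1 and HE2. In Flk1+ cells, where 12.6% of all genes were called, the median was 0.49 against 0.00 over all genes. Lmo1, the closest relative of Lmo2 named here, was at 26.8 and 13.9 FPKM in Sp3-/-, 13.7 and 2.80 in Sp1ΔDBD/ΔDBD and 1.77 and 1.89 in WT Flk1+ samples (Sp3-/- above WT by 3.33, SE 0.551, adjusted p = 0.00101). Etv2, the ETS factor needed for the first blood and endothelial mesoderm, was at 96.1 and 90.2 FPKM in Sp3-/- against 31.4 and 17.0 in WT Flk1+ samples (2.01, adjusted p = 0.00754, lost without WT replicate 2 or Sp3-/- replicate 1, adjusted p = 0.138 and 0.0719). Gata4, a factor of heart and endoderm, was at 2.72 and 4.90 against 1.82 and 0.806 in progenitors (1.51, adjusted p = 0.0137, lost without WT or Sp3-/- replicate 2, adjusted p = 0.173 and 0.162). Lmo4 was at 2.97 and 3.58 against 5.77 and 5.81 in ESC (-0.81, adjusted p = 0.0251, lost without any of the 4 samples, adjusted p = 0.0653 to 0.199).

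Of 21 genes known as targets of heptad factors, all were tested. In Sp1ΔDBD/ΔDBD cells 13 of 105 tests were called, 6 upwards and 7 downwards, and in Sp3-/- cells 19 of 105, 14 upwards and 5 downwards, shares not far above the backgrounds given for the partners. In Flk1+ cells 4 rose and 1 fell in each mutant, with medians of 0.25 and -0.05 (all genes 0.02 and 0.00). In Sp1ΔDBD/ΔDBD Flk1+ samples Cdh5, Tek, Pecam1 and Cd34 (1.80, adjusted p = 0.0255) rose, and Eng, the endothelial receptor endoglin, fell (-0.83, adjusted p = 0.0223). Cdh5, which encodes VE-cadherin, was at 5.84 and 14.8 FPKM against 1.62 and 2.09 in WT (2.28, SE 0.303, adjusted p = 0.000111), and Tek at 4.14 and 8.94 against 1.22 and 1.29 (2.19, adjusted p = 0.00015). Pecam1 was at 2.82 and 6.75 against 1.39 and 1.99 (1.34, adjusted p = 0.00654, and 0.73 without Sp1ΔDBD/ΔDBD replicate 2, adjusted p = 0.132, or 1.10 without WT replicate 1, adjusted p = 0.104). Cdh5, Tek and Pecam1 were higher in replicate 2 of the mutant, the sample with the higher value of every heptad member but Lmo2. In Sp3-/- Flk1+ samples Cdh5 was at 5.42 and 4.85 FPKM (1.43, adjusted p = 0.00486) and Tek at 3.31 and 3.31 (1.33, adjusted p = 0.00724), and Cd34 also rose (1.82, adjusted p = 0.0145).

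In Sp3-/- HE1 cells 6 targets rose and 0 fell, with a median of 0.21 against 0.05 over all genes. Myb, a factor of definitive progenitors, was at 8.38 and 5.65 FPKM against 1.32 and 0.852 in WT (2.59, SE 0.410, adjusted p = 0.000694), and Gfi1b, a repressor that helps to switch off the endothelial programme, at 4.73 and 5.24 against 0.756 and 0.900 (2.46, adjusted p = 0.000518). In Sp1ΔDBD/ΔDBD HE1 samples they were at 0.895 and 2.61 and at 1.04 and 0.797 FPKM. Lyl1 was the member called in the same cells. Cd34, a surface protein of endothelium and progenitors, was at 82.4 and 72.6 FPKM in Sp3-/- HE1 cells against 139 and 153 in WT. In HE2 it was at 117 and 104 in Sp1ΔDBD/ΔDBD and 111 and 123 in Sp3-/- against 248 and 353 in WT samples. In progenitors it was at 86.2 and 100, and 112 and 140, against 103 and 262. In Sp1ΔDBD/ΔDBD HE1 it was at 92.1 and 29.5 against 139 and 153 in WT (-1.48, SE 0.464, adjusted p = 0.0487). This call stood just inside the threshold and became -0.66 without Sp1ΔDBD/ΔDBD replicate 2 (adjusted p = 0.572), -1.55 without WT replicate 1 (adjusted p = 0.154) and -1.41 without WT replicate 2 (adjusted p = 0.159). Leaving out 1 sample of most other groups also moved it past the threshold (adjusted p = 0.0505 to 0.0614).

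In ESC the BMP inhibitor gene Smad6 was at 2.88 and 3.68 FPKM in Sp3-/- against 0.620 and 0.892 in WT samples (1.99, adjusted p = 0.000201). It was also called in Sp1ΔDBD/ΔDBD ESC, at 2.33 and 2.64 FPKM (1.61, adjusted p = 0.000862). In progenitors Slc4a1, the anion exchanger of red cells, was at 0.498 and 1.63 in Sp3-/- against 10.5 and 2.45 in WT samples (-2.35, SE 0.595, adjusted p = 0.0187). It was -1.33 without WT replicate 1 (adjusted p = 0.248) and -1.59 without Sp3-/- replicate 1 (adjusted p = 0.247), and -1.33 without the 6 replicate 1 samples (adjusted p = 0.104). The erythroid marker sum (Klf1, Hba-x, Hbb-bh1, Hbb-y, Alas2, Slc4a1) moved with it, at 13630 and 4512 FPKM in WT, 9690 and 7273 in Sp1ΔDBD/ΔDBD and 1534 and 3481 in Sp3-/- progenitors. The part of red cell number in the progenitor values was not tested.

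**Figure D4:**
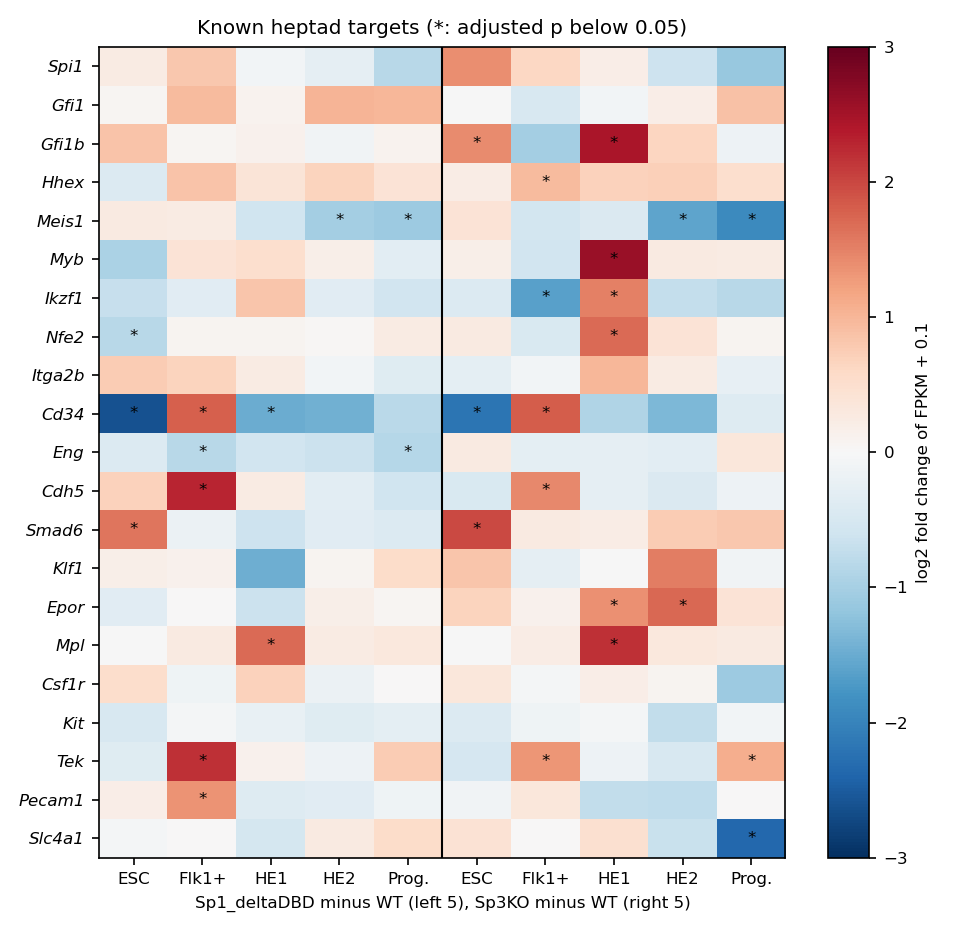
Log2 fold change of FPKM + 0.1 of 21 known heptad targets in Sp1ΔDBD/ΔDBD (left 5 columns) and Sp3-/- (right 5 columns) against WT, by population, with an asterisk where the adjusted p is below 0.05. The left columns hold 13 calls and the right columns 19, with Cdh5 at 2.28 in Sp1ΔDBD/ΔDBD Flk1+ cells and Myb at 2.59 in Sp3-/- HE1 cells.

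Over the 15 group means the members moved with each other, with Pearson's r of log2(FPKM + 0.1) from 0.797 (Gata2 and Runx1) to 0.989 (Tal1 and Lmo2), and 0.985 for Erg and Fli1. These points share the low ESC values and the same libraries, so r is a description without a test. Among 12016 genes with a mean of at least 3 FPKM in a group, Tal1 was most like Zfpm1 (0.991), which encodes the GATA cofactor FOG-1, Lmo2 (0.989) and Zeb2os (0.987). Lmo2 was most like Tal1, Stxbp5 (0.987) and Vopp1 (0.983), and Lyl1 like 3110062M04Rik (0.990), Itga2b (0.990) and Car15 (0.989). Gata2 was most like Zfp362 (0.983), Rspo3 (0.979) and Col4a6 (0.974), and Runx1 like Zfyve19 (0.988), Zfand4 (0.983) and Gp1ba (0.975), a platelet receptor gene. Erg was most like Hapln1 (0.993), Fbxl17 (0.992) and Tshz1 (0.992), and Fli1 like Rhoj (0.991), an endothelial GTPase gene, Heph (0.987) and Olfml3 (0.987).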

How the data were processed

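RNA from 30 samples was analysed (5 populations, 3 genotypes, 2 replicates), grouped by their labels. The deposited values are FPKM: the authors made stranded total RNA libraries, aligned reads to mm10 with HISAT2 2.1.0, calculated FPKM with StringTie 1.3.3, removed genes that did not exceed 1 FPKM in any sample, then applied quantile normalisation. At any rank samples differed by at most 0.192 FPKM. Here genes above 1 FPKM in at least 1 sample (14525 of 14685) entered 1 two-sided fit of 15 group means in limma (version 3.58.1, under R 4.3.3) to log2(FPKM + 0.1). Variances were moderated by empirical Bayes with a trend in intensity, and 15 residual degrees of freedom were left. Exact permutation of 2 against 2 samples cannot go below p = 0.333. The members and lists were chosen with earlier results of these data known. All members were named, and of each list the up to 4 genes per mutant with the largest log2 fold change among those called with a group mean of at least 3 FPKM. A gene of the target and erythroid lists is not reported here. The genes most like a member are the 3 with the highest r. The method was tested on simulated data. Other settings are in the closing section. Sequences came from RefSeq (GRCm38.p6) and exons from GENCODE M21.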

Additional observations from a re-analysis of the deposited data

Results flagged for a closer look

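The effects of the 2 mutations on a member, each against the same WT samples, differed by the direct limma test in 5 cases, given here as Sp3-/- minus Sp1ΔDBD/ΔDBD. In ESC the differences were -1.49 for Tal1 (adjusted p = 0.0109), -1.17 for Lmo2 (adjusted p = 0.00191), 0.85 for Gata2 (adjusted p = 0.0178) and -2.02 for Fli1 (adjusted p = 0.000333), all at levels of at most 1.23 FPKM. In HE1 it was 0.78 for Gata2 (adjusted p = 0.0222). With 2 samples per group no test for outlying samples was made.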

How the results depend on the processing

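All 36 calls of members kept their direction under every alternative. Of these, 12 kept their call throughout, all of them steps between WT populations, and 0 of the 19 calls between genotypes did. The counts of member calls against WT (8 in Sp1ΔDBD/ΔDBD and 6 in Sp3-/- cells), between the mutants (5) and between WT populations (17) were 5, 7, 3 and 18 with a pseudocount of 1, and 5, 4, 7 and 14 with one of 0.01. Fitting each population alone, with fewer samples to estimate the spread, gave 1, 1 and 1, and 11 instead of 61 calls of listed partners, relatives and targets. Leaving out 1 sample gave 5 to 10, 3 to 8, 3 to 6 and 13 to 18. A ratio above 2 between group means of FPKM (each plus 0.1), without a test, gave 7 in Sp1ΔDBD/ΔDBD and 2 in Sp3-/- cells. Correcting for length and GC content gave 9, 4, 5 and 17. Effects differing between populations, 0 in the report, numbered 4 with a pseudocount of 1, 1 with the replicate block within a population (Tal1, Sp1ΔDBD/ΔDBD, Flk1+ minus ESC), 0 to 4 without 1 sample, and 1 without the 6 replicate 1 samples (Runx1, Sp3-/-, HE1 minus Flk1+), a choice made after seeing the data. The causes were not tested. No filter and a minimum group mean of 3 FPKM lost no call of a member.

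The labels do not say that same-numbered samples share a differentiation, and with 2 replicates the data do not settle it. Their deviations from the group means correlated across 12016 genes at 0.222 to 0.455 for WT with Sp1ΔDBD/ΔDBD and 0.00473 to 0.193 for WT with Sp3-/- samples of a population, and at 0.0349 to 0.612 between blast culture populations of a genotype. With the replicate block the counts were 8, 6 and 7 within populations, and 19 by culture for the WT steps. Samples of 1 culture may not be independent, so residual degrees of freedom may be overstated.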
